A study of Macaca fascicularis with 24 samples.

Results

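Mitochondrial fatty acid oxidation was followed through 10 enzyme genes, CPT1A, CPT2, ACADVL, ACADM, ECHS1, HADHA, HADHB, HADH, ACAA2 and ETFDH, in the aorta of cynomolgus macaques (Macaca fascicularis), sampled from its thoracic stretch. The members were all probe sets whose symbol in the platform annotation is one of these genes, which gave 20 of the 22215 probe sets that are not controls and 10 of 11963 named genes. A probe set is a handful of short DNA probes against 1 transcript, summarised on each array as a single intensity. The study compared aortas of old and young animals of each sex, with 6 arrays per group. The mean age was 6.6 years in the young males, 7.2 years in the young females, 20.0 years in the old males and 21.2 years in the old females. The labels give no treatment, no genotype and no age for a single animal, and do not say that the arrays of a group come from separate animals, so p-values measure only the spread between these samples. After 3 pairs of near-identical arrays within a group were averaged and counted once, 21 samples remained, with 6 old males and 5 samples in each of the other groups.

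Fatty acids enter the mitochondrion as carnitine esters and are then shortened step by step, each round releasing acetyl-CoA for the tricarboxylic acid cycle and electrons for the respiratory chain. CPT1A, the liver-type isoform of carnitine palmitoyltransferase on the outer membrane, makes the carnitine ester, and CPT2 on the inner membrane turns it back into acyl-CoA. The acyl-CoA dehydrogenases ACADVL (very long chains) and ACADM (medium chains) make the first oxidation, and their electrons pass through the electron transfer flavoprotein to ETFDH, which reduces ubiquinone. ECHS1 hydrates shorter enoyl-CoA, HADH oxidises medium- and short-chain 3-hydroxyacyl-CoA, and ACAA2 is a thiolase that splits off acetyl-CoA. HADHA and HADHB are the subunits of the trifunctional protein, which carries out the last steps on long chains. In the RefSeq annotation of the macaque assembly T2T-MFA8v1.1, HADHA and HADHB lay on either side of the locus LOC102143010. Smooth muscle is the main cell type of the aortic wall, while brown fat and striated muscle are rich in these enzymes, and fat lies around the thoracic aorta.

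All values below are log2(intensity + 16) after quantile normalisation unless a deposited intensity is named, errors with a group mean are SD, and errors with a change or a slope are standard errors from the limma model. A change was called when its Benjamini-Hochberg adjusted p over all 11108 tested probe sets was below 0.05. Of the 20 member probe sets, 15 passed the filter on dim probe sets, and they covered all 10 genes. The dim ones were the second probe sets of CPT2, ACAA2 and ETFDH and a pair of probe sets of CPT1A. The probes were designed on human sequence and read with monkey RNA, so levels are not compared between genes, and each gene is described by its brightest probe set unless another is named. In whole aorta, fewer cells of a type and less RNA per cell cannot be told apart.

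The tissue carried the markers of its label. The 4 smooth muscle genes TAGLN, MYL9, CNN1 and LMOD1 had group means from 11.4 to 15.4, with the mean of the 11 tested smooth muscle markers between 11.7 and 14.2 in every sample. Before any result, 6 samples stood apart from the other 15. They were young male 1, young female 3, old males 2 and 4, and old females 2 and 6. Their median correlation with the other arrays was 0.809 to 0.828, against 0.878 to 0.935. Their hybridisation controls were brighter (12.5 to 14.0 against 10.9 to 11.9), and their 3' to 5' ratio of the actin control ran from 0.78 to 1.73, against -0.25 to 1.15. Results that rest on them are given with and without them where such a fit was made.

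The plot of deviations by gene and sample shows that 1 sample dominated the set. Old male 4 had the highest level of 9 of the 10 genes, and ECHS1 was highest in young female 6. Over all tested probe sets, old male 4 was the highest sample for 10.8%. Its deposited intensity was 13348.2 for ACADVL against a median of 1282.95 over the 24 arrays, 10337 for ACAA2 against 939.55, 7565.1 for HADHB against 1643.65 and 2250.5 for ETFDH against 288. HADH stood less far above its median in the same sample, with 1434.4 against 702.1.

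**Figure D1:**
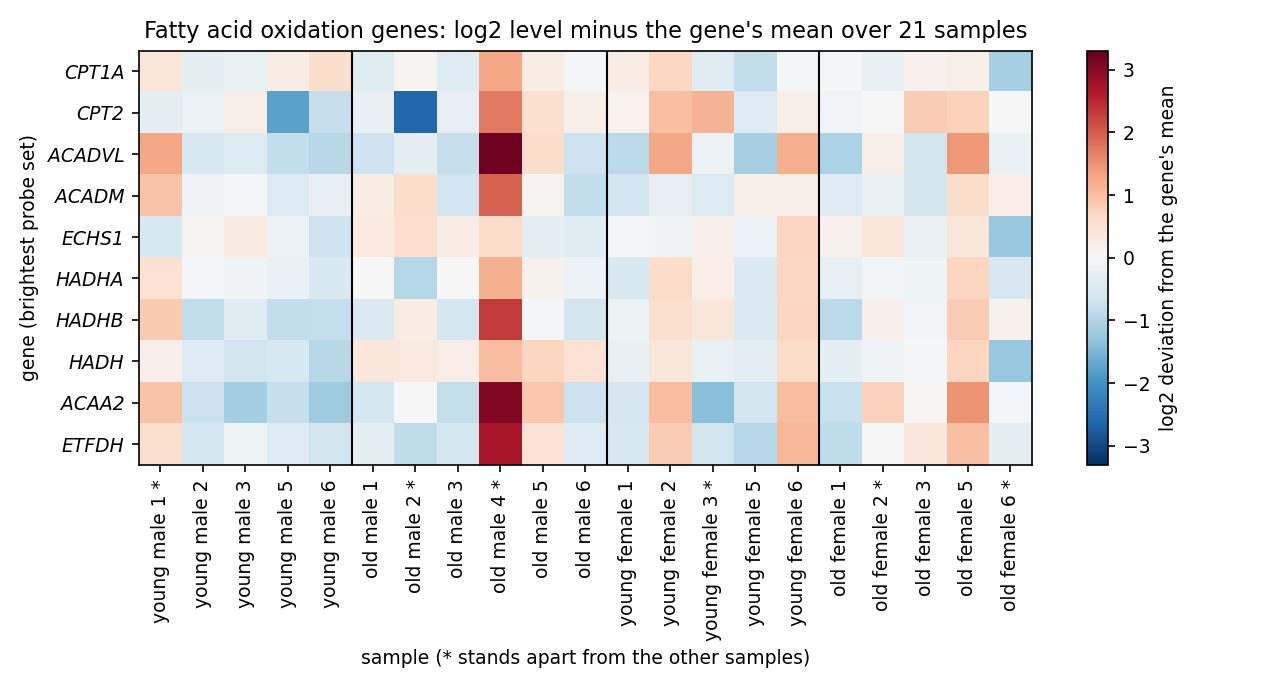
Deviation of each of the 10 genes (rows, brightest probe set) from its own mean over the 21 samples, in log2 units, with samples as columns grouped by age and sex and an asterisk on the 6 samples that stand apart. Old male 4 is the darkest column for ACADVL, ACAA2, ETFDH and HADHB, while the other old males lie above the mean of HADH by 0.22 to 0.72.

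Old against young was asked within each sex. In males HADH was the gene with the clearest difference: its levels in the old did not overlap those in the young, but the difference did not pass the adjusted threshold. The other 9 genes had overlapping groups. In females no gene stood out in either direction.

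HADH, which oxidises 3-hydroxyacyl-CoA of medium and short chains, is read by 3 tested probe sets. With the brightest, the young males had levels of 9.74, 9.16, 8.96, 9.04 and 8.66. The old males ran from 9.80 to 10.59 with a median of 10.01. Every old male lay above every young male. Such a separation with the old higher was seen in 0.315% of all tested probe sets (35 of 11108). The group means were 9.11 ± 0.40 (SD, n = 5) in young males and 10.10 ± 0.30 (SD, n = 6) in old males. The change was 0.99 ± 0.28 (95% interval 0.42 to 1.56), with an unadjusted p of 0.0017 and an adjusted p of 0.99991 in the limma fit.

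The females did not show the difference. The young females had HADH levels of 9.34, 9.95, 9.36, 9.29 and 10.19, and the old females 9.25, 9.46, 9.54, 10.28 and 8.34. The groups overlapped, and the lowest value of all samples was that of old female 6. The means were 9.62 ± 0.42 (SD, n = 5) in young and 9.37 ± 0.70 (SD, n = 5) in old females, with a change of -0.25 ± 0.29 (95% interval -0.85 to 0.35). Without old female 6 the change was 0.0072. The test of the difference itself, the male change minus the female change, gave 1.24 ± 0.40 (95% interval 0.41 to 2.07) with an unadjusted p of 0.0052 and an adjusted p of 0.999937 in limma.

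By group mean, HADH was lowest in young males, followed by old females, young females and old males. Each group overlapped its neighbour in that order. Among the old animals the male mean was higher by 0.73 ± 0.28 (unadjusted p 0.015, adjusted p 0.999221 in limma), and among the young it was lower by 0.51, a difference of -0.51 ± 0.29 with an interval from -1.11 to 0.09.

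The other HADH probe sets gave smaller differences in males. The second in brightness differed by 0.30 ± 0.34 and the third by 0.39 ± 0.47, with overlapping groups in both. Over the 21 samples they correlated with the brightest at r = 0.53 and 0.72 and with each other at 0.37, as a description of probe sets that read the same samples. The third is dim, and its lowest deposited intensity, in old female 6, was 19.4.

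The male HADH difference did not rest on the samples that stand apart. Without all 6 of them, with 4 young and 4 old males, it was 1.07 ± 0.24 with an unadjusted p of 4.36e-04 and an adjusted p of 0.255 in limma. There 651 of the 11108 tested probe sets had an unadjusted p below 0.05 and 3 were called, against 373 and 2 with all samples. Without old male 4 alone the HADH difference was 0.89 ± 0.28. With each array weighted by its scatter it was 1.08 ± 0.18 with an adjusted p of 0.016, the only alternative tried under which HADH was called in males. In that fit 0.225% of the tested probe sets were called (25 of 11108), and the weights of the 6 samples that stand apart were 0.265 to 0.367, against 0.611 to 2.97 in the other samples.

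**Figure D2:**
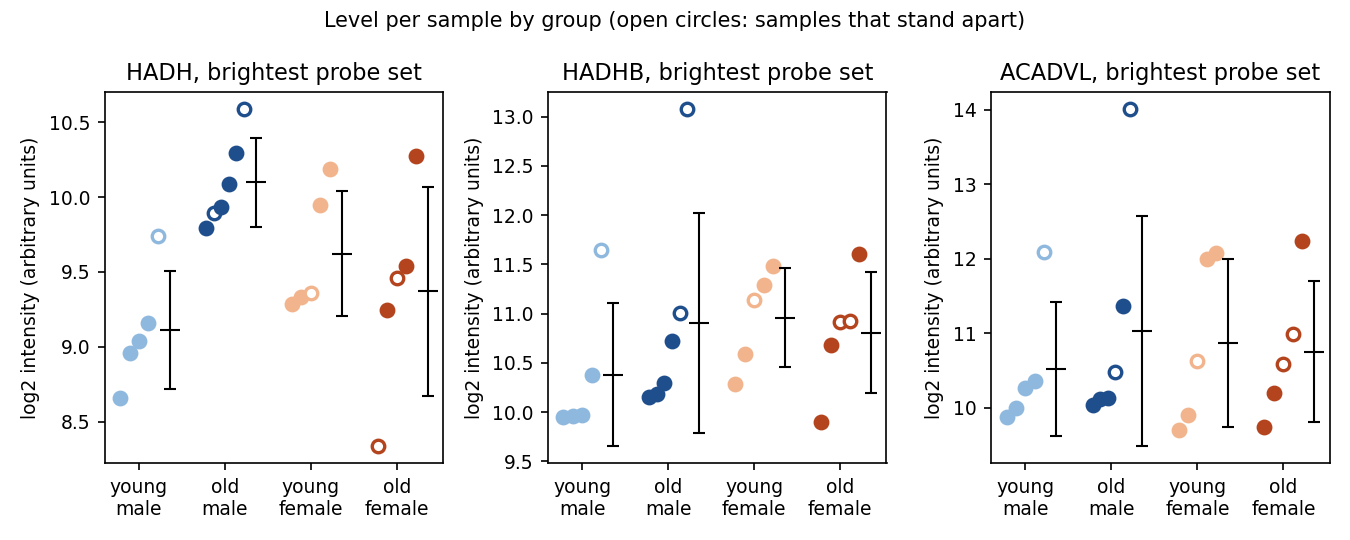
Level of HADH, HADHB and ACADVL (brightest probe sets, log2 intensity, vertical axes that differ between panels) in each of the 21 samples by group, with open circles for the 6 samples that stand apart and the mean ± SD beside each group. Old males lie above young males for HADH, while for HADHB and ACADVL 1 old male, at 13.08 and 14.01, lies far above the others.

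In the carnitine shuttle no change was called in males or females. CPT1A had 9.86, 9.13, 9.24, 9.70 and 10.04 in the young males and 9.03 to 10.73 with a median of 9.47 in the old. These groups overlapped almost fully, and the difference was -0.02 ± 0.31. The second CPT1A probe set in brightness had a lower mean in the old of both sexes, by -0.86 ± 0.53 in males and -0.66 ± 0.56 in females (-0.76 ± 0.39 averaged over the sexes, unadjusted p 0.062, adjusted p 0.984 in limma). It did not follow the brightest CPT1A probe set, with r = -0.12 over the 21 samples. CPT2 differed by 0.46 ± 0.52 in males and -0.10 ± 0.55 in females, and its lowest value, 5.48, was that of old male 2.

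The acyl-CoA dehydrogenases had wide spreads in every group. ACADVL had 12.08, 10.26, 10.35, 9.99 and 9.88 in the young males and 10.04 to 14.01 with a median of 10.30 in the old. Young male 1 and old male 4, both among the samples that stand apart, were the high ones, and the other males of both ages overlapped. The difference was 0.51 ± 0.65, and -0.09 without old male 4. In females ACADVL was high in young females 2 and 6 (12.08 and 12.00) and in old female 5 (12.24), and the difference was -0.11 ± 0.68. ACADM differed by 0.23 ± 0.38 in males and 0.10 ± 0.40 in females, and its male difference was -0.11 without old male 4.

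ECHS1, the hydratase, and the trifunctional protein showed no called difference. ECHS1 differed by 0.36 ± 0.29 in males and -0.21 ± 0.30 in females. HADHA, the alpha subunit, differed by 0.11 ± 0.31 in males and -0.17 ± 0.32 in females. Its other probe sets differed by -0.04 in males, and by -0.20 ± 0.22 and -0.41 ± 0.27 in females. HADHB, the beta subunit, had 11.64, 9.96, 10.38, 9.95 and 9.97 in the young males and 10.16 to 13.08 with a median of 10.51 in the old. Only young male 1 exceeded 11 among the young, while old males 2 and 4 did so among the old. The HADHB difference was 0.53 ± 0.44 in males, 0.09 without old male 4, and -0.15 ± 0.46 in females.

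The thiolase ACAA2 had 11.41, 9.77, 9.35, 9.72 and 9.30 in the young males and 9.70 to 13.54 with a median of 10.19 in the old. The groups overlapped, and old males 4 and 5 were the highest of theirs. The difference was 0.88 ± 0.62 in males, 0.33 without old male 4, and 0.40 ± 0.65 in females. ETFDH, which hands the electrons to ubiquinone, differed by 0.42 ± 0.52 in males, -0.09 without old male 4, and 0.07 ± 0.55 in females.

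Counted over the set, 0 of the 15 tested member probe sets were called in males by limma and 1, that of HADH, had an unadjusted p below 0.05. Over all tested probe sets 0.018% were called (2 of 11108) and 3.36% had an unadjusted p below 0.05. The male mean was higher in the old for 9 of the 10 genes, with a median change of 0.44, beside 47.6% of all tested probe sets and a median of -0.01 over all genes. Without old male 4 the count was 5 of 10 and the median 0.003. Without the 6 samples that stand apart it was 8 of 10 and 0.25. Without old male 4 the higher mean in the old was kept by HADH, ACAA2, ECHS1, CPT2 and HADHB, while ACADVL, ACADM, HADHA and ETFDH turned to a lower one.

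In females 0 of 15 member probe sets were called by limma and 0 had an unadjusted p below 0.05, beside 0% and 2.84% of all tested probe sets. The mean was higher in the old for 3 of the 10 genes, with a median of -0.12, beside 45.5% of all tested probe sets. Without the samples that stand apart it was 6 of 10 and 0.026. Averaged over the sexes 0 were called and 0 had an unadjusted p below 0.05 (all tested probe sets: 0% and 4.38%). The male change exceeded the female change in 10 of 10 genes with a median of 0.52, beside 52.8% of all tested probe sets and a median of 0.02 over all genes. Without old male 4 this was 6 of 10 and 0.037, and without the samples that stand apart 8 of 10 and 0.29. Of these differences 0 of 15 were called, and only that of HADH had an unadjusted p below 0.05, beside 1.94% of all tested probe sets.

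Male against female gave no call either. In young animals 0 of 15 member probe sets had an unadjusted p below 0.05 in limma, beside 1.4% of all tested probe sets. In old animals 1 did, that of HADH, beside 4.08%. Of all tested probe sets 0.027% were called in each of these comparisons.

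**Figure D3:**
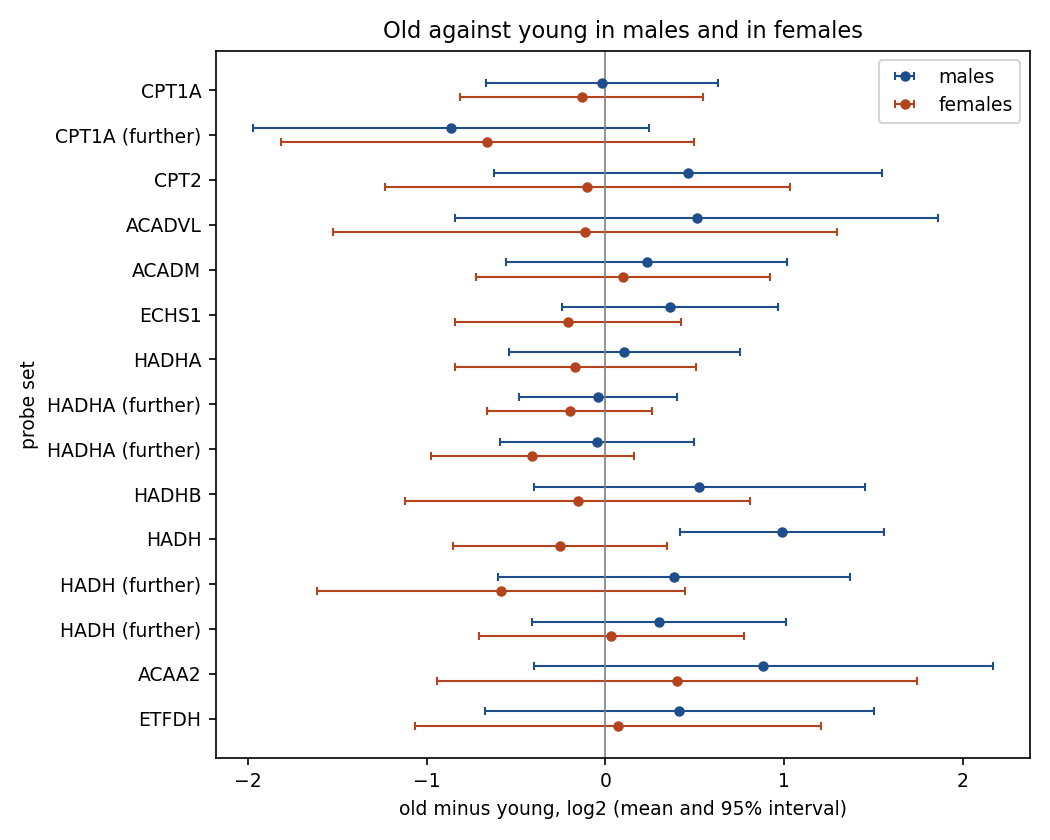
Old minus young in log2 units for the 15 tested member probe sets, in males (blue) and females (red), with points for the fitted change and bars for its 95% interval. The interval excludes 0 only for the brightest HADH probe set in males, 0.42 to 1.56 and the other intervals include it.

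HADH was then set against its 9 partners. Each gene was centred on its mean over the samples, and the mean deviation of the 9 partners was taken from that of HADH. In young males this measure was -0.35, -0.06, -0.39, 0.04 and -0.35. In old males it was 0.59, 0.68, 0.64, -0.99, 0.43 and 0.92 for samples 1 to 6. HADH stood above its partners in 5 of the 6 old males by more than in any young male, and below them in old male 4, where the partners lay on average 2.0 and HADH 1.01 above their means.

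In females the measure stayed near 0 with 1 exception. It ran from -0.25 to 0.25 in the young females and from -0.90 to 0.14 in the old, and the lowest was old female 6. The group means were -0.22 ± 0.20 (SD, n = 5) in young males, 0.38 ± 0.69 (SD, n = 6) in old males, -0.01 ± 0.19 (SD, n = 5) in young females and -0.22 ± 0.40 (SD, n = 5) in old females. The old minus young difference was 0.60 in males and -0.22 in females. It was 0.88 in males without old male 4, and 0.23 in males when each gene was taken as the mean of its tested probe sets, so the size of the gap depends on the HADH probe set used. No test is given, since the measure takes up the male HADH difference described above.

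**Figure D4:**
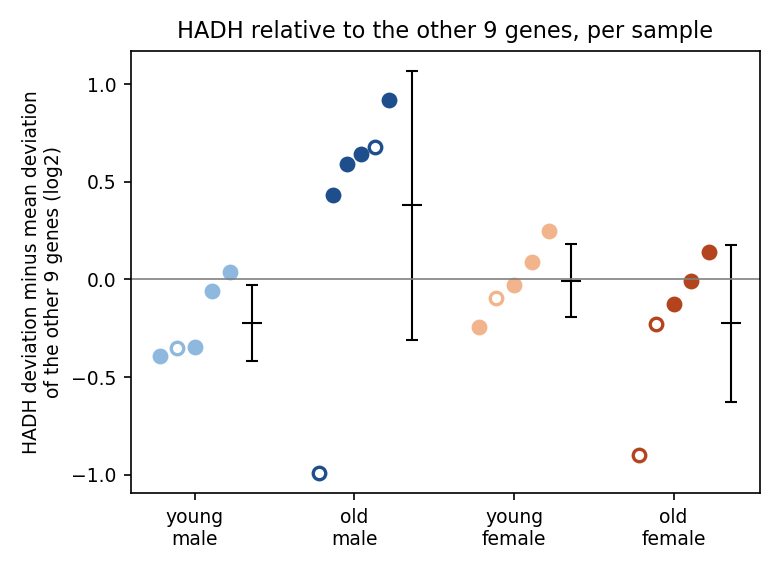
HADH deviation minus the mean deviation of the other 9 genes (log2, vertical axis) in each sample by group, with open circles for the samples that stand apart and the mean ± SD beside each group. In 5 of 6 old males the value lies between 0.43 and 0.92, above all young males, while old male 4 lies at -0.99.

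The members varied together to different degrees. Over the 21 samples the correlation of levels between 2 member genes had a median of 0.57 over the 45 pairs, from 0.07 (CPT2 with ECHS1) to 0.94 (ACADVL with ETFDH). Without old male 4 the median was 0.37, and in the 15 samples that do not stand apart 0.54. ACADVL, HADHB, ACAA2 and ETFDH were the tightest group, with ACADVL against HADHB at 0.93 and against ACAA2 at 0.92. HADHA joined them in part, at 0.86 with ACADVL and 0.87 with ETFDH but 0.72 with HADHB and ACAA2. In the 15 samples that do not stand apart it had 0.94 with ACADVL. ECHS1 followed the others least, with a median of 0.29. HADH lay between, with a median of 0.57 to its partners and its highest value, 0.67, with ACAA2. The order changed in the 15 samples that do not stand apart. There CPT1A followed least, with a median of 0.22, ECHS1 had 0.36, and HADH 0.67, beside 0.69 for ACADVL and HADHB. The points share arrays and their normalisation, so these values are a description.

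When deviations from the group means were used, the 10 genes most like HADH among 6942 were NDUFA8 (r = 0.85), GRK3 (0.84), TRAP1 (0.83), SPATA20 (0.80), COX7A1 (0.80), RNF130 (0.80), HADHA (0.79), FAHD2A (0.79), BCKDHA (0.79) and ETFB (0.78). NDUFA8 is a subunit of respiratory complex I, COX7A1 one of cytochrome c oxidase in muscle and brown fat, BCKDHA a subunit of the branched-chain ketoacid dehydrogenase, and ETFB a subunit of the electron transfer flavoprotein. HADHA was the only member among them, at rank 7, while ACAA2, ETFDH and ACADVL were at ranks 33, 36 and 37 and CPT2 at 797. By the same measure the 3 genes most like ACADVL were SDHA (0.96), COX5A (0.95) and ATP5F1B (0.95), all of the respiratory chain or ATP synthase. The members ACAA2 (0.945), HADHB (0.942) and ETFDH (0.939) followed at ranks 4, 5 and 7. Likeness was computed with all 21 samples only.

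The rest of the pathway was described with gene lists. In males 6 of 6 tested genes of the carnitine shuttle and acyl-CoA synthetases had a higher mean in the old (median 0.41), 0 were called and 1 had an unadjusted p below 0.05, beside 47.6% of all tested probe sets with a higher mean and 3.36% with such a p. With old male 4 left out it was 5 of 6 with a median of 0.15, and without the 6 samples that stand apart 6 of 6 and 0.32. The gene with such a p was ACSL1, which activates long-chain fatty acids in fat and muscle, with 1.14 ± 0.47 (unadjusted p 0.024). SLC22A5, the carnitine importer, differed by 0.41 ± 0.36, and SLC25A20, the carnitine-acylcarnitine carrier of the inner membrane, by 0.18 ± 0.29. Of the 6 auxiliary enzymes for unsaturated chains 6 had a higher mean (median 0.58), with ECH1 at 0.90 ± 0.40 (unadjusted p 0.036) and DECR1, a dienoyl-CoA reductase, at 0.65 ± 0.49. Leaving out old male 4 gave 4 of 6 and a median of 0.25, and leaving out the 6 samples that stand apart 5 of 6 and 0.40.

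Among the other acyl-CoA dehydrogenases and electron transfer genes 3 of 6 had a higher mean in old males (median -0.01), led by ETFB at 0.70 ± 0.49. Peroxisomal oxidation had 2 of 7 (median -0.06), with HSD17B4, the peroxisomal multifunctional enzyme, at 0.57 ± 0.30 in males and 0.60 ± 0.31 in females. Ketone body genes had 3 of 3 (median 0.35), and OXCT1, which starts ketone use, differed by -0.83 ± 0.39 in females (unadjusted p 0.045). The tricarboxylic acid cycle had 13 of 14 (median 0.26), with SDHC, a subunit of succinate dehydrogenase, at 0.38 ± 0.23. When old male 4 was left out, the cycle had 6 of 14 with a higher mean and a median of -0.014, peroxisomal oxidation a median of -0.23, the ketone body genes 2 of 3 and 0.066, and the other dehydrogenases and electron transfer genes 1 of 6 and -0.17. None of these genes was called. Without the 6 samples that stand apart, the cycle had 11 of 14 and a median of 0.17, and peroxisomal oxidation 5 of 7 and 0.021. The ketone body genes then had 2 of 3 and 0.21, and the other dehydrogenases and electron transfer genes 4 of 6 and 0.075.

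Genes that control oxidation and fat supply had the smallest p-values of the pathway lists in males. Of 11 tested regulators 8 had a higher mean in old males (median 0.19), with MLYCD, which breaks down malonyl-CoA, the inhibitor of CPT1, at 1.16 ± 0.40 (unadjusted p 0.0083) and PDK4, which restrains pyruvate oxidation, at 0.72 ± 0.46. Of 7 tested genes of fatty acid uptake and release 6 had a higher mean (median 0.44). MGLL, the monoglyceride lipase, differed by 1.38 ± 0.44 (unadjusted p 0.0049), CD36, a fatty acid transporter, by 1.29 ± 0.67, and VLDLR by -0.66 ± 0.29 (unadjusted p 0.033). The medians of the regulators and of uptake and release were 0.098 and 0.47 without old male 4. Without the 6 samples that stand apart they were 0.18 and 0.34. In limma 0 genes of these lists were called in males or females. In females the medians of the 8 pathway lists lay between -0.21 and 0.13.

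Markers of white fat cells were read in the same samples, and their groups overlapped. The mean over the 8 tested white adipocyte markers was 9.13 ± 1.42 (SD, n = 5) in young males, 10.31 ± 1.25 (SD, n = 6) in old males, 9.74 ± 0.80 (SD, n = 5) in young females and 9.72 ± 1.08 (SD, n = 5) in old females. The ranges were 7.65 to 11.4, 8.10 to 11.7, 8.74 to 10.8 and 8.10 to 10.7, in that order. In males 7 of the 8 had a higher mean in the old (median 1.18), beside 47.6% of all tested probe sets. In limma 0 were called and 2 had an unadjusted p below 0.05, beside 0.018% and 3.36% of all tested probe sets. These were CIDEC at 1.16 ± 0.40 (unadjusted p 0.0084) and PPARG at 2.12 ± 0.93 (0.034). The count stayed at 7 of 8 without old male 4 (median 0.89) and without the 6 samples that stand apart (1.02). ADIPOQ, LEP, PLIN1 and GPD1 lay below the filter on dim probe sets and entered no test. PLIN1, which coats fat droplets, still ran from 5.24 to 10.1 over the samples, while LEP stayed between 4.41 and 5.70.

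Brown adipocyte markers behaved in part alike. The 5 tested were UCP1, which uncouples respiration to make heat, CIDEA, DIO2, EBF2 and COX7A1, while PPARGC1A, PRDM16 and ZIC1 lay below the filter. Their mean was 8.08 ± 0.53 (SD, n = 5) in young males, 9.05 ± 1.20 (SD, n = 6) in old males, 8.81 ± 1.26 (SD, n = 5) in young females and 8.67 ± 0.94 (SD, n = 5) in old females. UCP1 ran from 5.46 to 6.89 in young males and from 5.26 to 12.2 in old males, and its highest value, 13.3, was that of young female 2. Old male 4 had the highest mean of the white list, 11.7, and of the brown list, 10.9. The brown mean, which includes each tested marker, followed UCP1 (r = 0.94), CIDEA (0.92) and EBF2 (0.79) more than DIO2 (0.54) and COX7A1 (0.34). Of the dim markers PPARGC1A went with it (0.88), while PRDM16 (-0.09) and ZIC1 (-0.19) did not. The white and brown levels overlap in content: CIDEA rose with the white level by 1.29 ± 0.14 and UCP1 by 1.37 ± 0.38 (adjusted p 3.81e-06 and 0.017 in limma).

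How far the members followed the fat markers was asked with a slope, the change of a gene per unit of the marker mean, with the group means kept in the model. ACADVL, HADHB, ACAA2, ACADM and ETFDH rose with the white adipocyte level, and so did the second HADH probe set. These 6 of 15 probe sets were called, all upward. The background was large: 9.08% of all tested probe sets were called upward and 22.2% in either direction.

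The steepest slope was that of ACADVL, 0.74 ± 0.16 with an adjusted p of 0.0054 in limma. ACAA2 had 0.68 ± 0.16 (adjusted p 0.0074), HADHB 0.53 ± 0.10 (0.0033), ETFDH 0.47 ± 0.15 (0.031), ACADM 0.37 ± 0.10 (0.018) and the second HADH probe set 0.32 ± 0.10 (0.023). The brightest HADH probe set, at 0.21 ± 0.08, did not pass (adjusted p 0.080). HADHA at 0.22 ± 0.10, CPT1A at 0.16 ± 0.10, CPT2 at 0.11 ± 0.18 and ECHS1 at 0.03 ± 0.10 did not pass either.

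The calls for the white slope depended on the samples. Without the 6 samples that stand apart 0 of 15 were called by limma, and 0.504% of all tested probe sets were called upward. The median slope over the 10 genes stayed near its value, at 0.28 against 0.29, with ACADVL at 0.69 ± 0.18, ACAA2 at 0.58 ± 0.15, ETFDH at 0.53 ± 0.14 and HADH at 0.28 ± 0.07. HADHB fell to 0.36 ± 0.10 and ACADM to 0.19 ± 0.12. Without young male 1 the count was 3. Without old male 4 it was 4, beside 6.18% of all tested probe sets called upward. With the 3' to 5' ratio of the actin control as a further covariate it was 0. No share over all tested probe sets was computed without young male 1 or with the actin ratio. Against the brown adipocyte level 5 of 15 were called, all upward, beside 1.9% of all tested probe sets called upward and 2.43% in either direction. ACADVL had a slope of 1.01 ± 0.13 and ACAA2 of 0.96 ± 0.12 (adjusted p 1.66e-04 for each), ETFDH 0.73 ± 0.13 (0.0037), HADHB 0.60 ± 0.11 (0.0056) and ACADM 0.46 ± 0.11 (0.025).

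Without the samples that stand apart 6 of 15 brown slopes were called, all upward, of ACADVL, HADHB, HADH, ACAA2, HADHA and ETFDH. Of all tested probe sets 0.846% were called upward there, and 122 of 11108 in either direction. ACADM lost its call, with a slope of 0.23, while HADH and HADHA gained one, HADH with 0.33. Without old male 4 they were 3, of ACADVL, ACAA2 and ETFDH, beside 0.513% of all tested probe sets called upward. With both marker means in 1 model no member was called for either, beside 10.9% of all tested probe sets for white and 0.108% for brown. ACADVL then had 0.13 ± 0.17 for white and 0.90 ± 0.20 for brown (adjusted p 0.639 and 0.0753), and ACAA2 0.07 ± 0.17 and 0.89 ± 0.19 (0.808 and 0.0753). COX7A1 and UCP1 are genes of mitochondria themselves, and the part of mitochondrial content in these slopes was not tested.

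Correlations without the group means gave a like order. With the white adipocyte level over 21 samples, HADHB had r = 0.77 and rho = 0.78 (permutation p 2e-05 for r, adjusted p 0.0019 over 11108 probe sets). Leaving out the 2 samples farthest from the median level gave 0.76, the 6 samples that stand apart 0.66 and the other 15 samples 0.70. ACADVL had r = 0.73 and rho = 0.79 (permutation p 0.00012, adjusted p 0.0056), with 0.73, 0.70 and 0.72 in the same subsets.

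HADH had r = 0.60 and rho = 0.64 (permutation p 0.00445, adjusted p 0.032), with 0.60 without the 2 farthest samples, 0.82 in the 6 that stand apart and 0.78 in the other 15. These within-set values exceed the pooled one. Of all tested probe sets 19.9% had an adjusted permutation p for r below 0.05 with the white level.

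**Figure D5:**
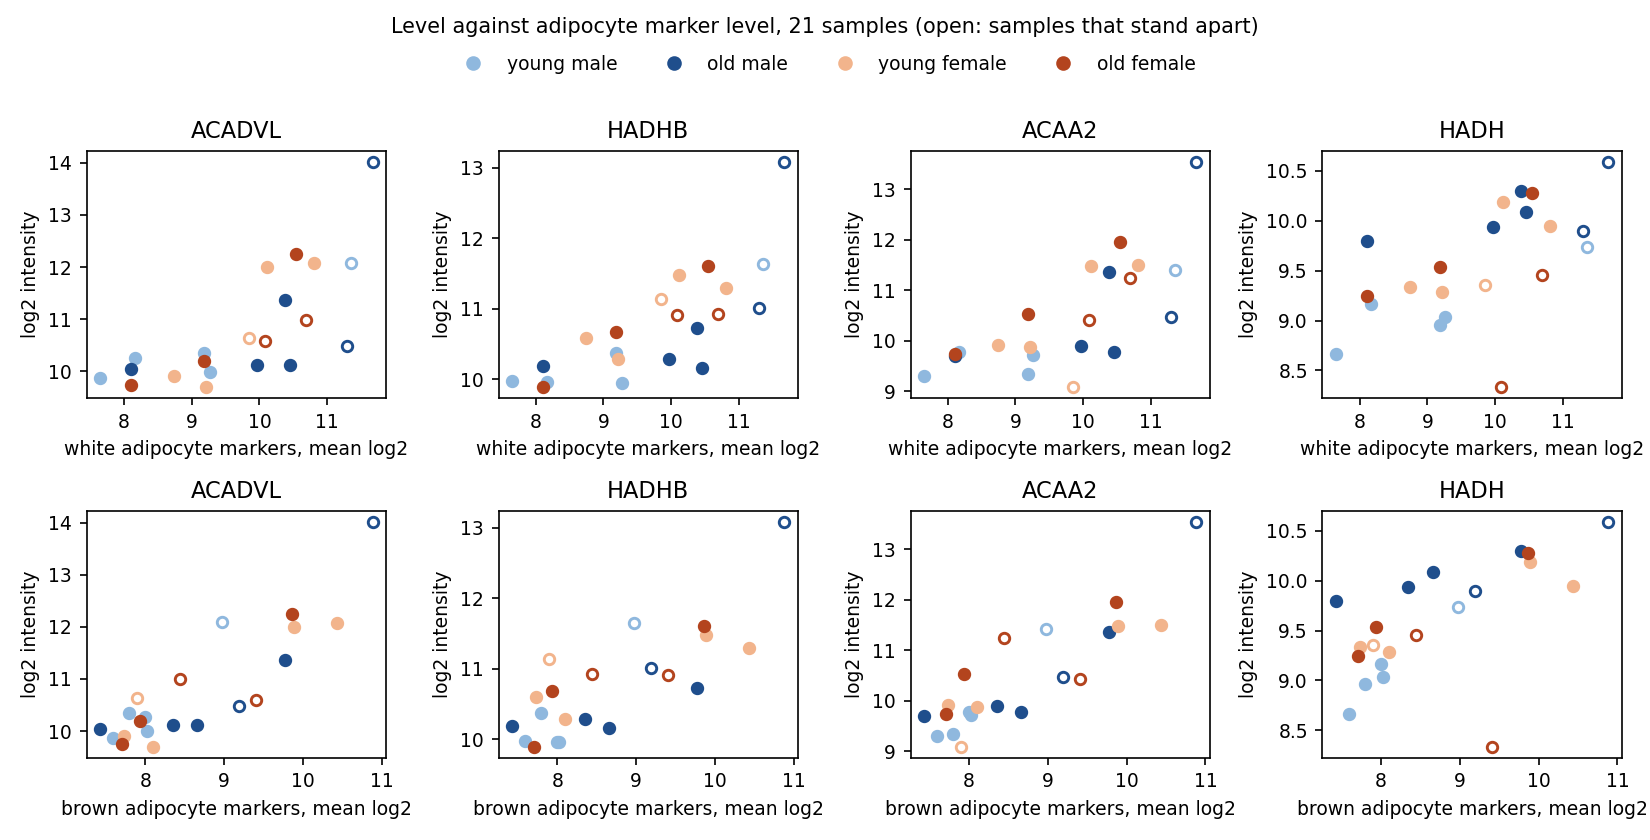
Level of ACADVL, HADHB, ACAA2 and HADH (log2 intensity, vertical axes) against the mean log2 level of the white adipocyte markers (upper row) and the brown adipocyte markers (lower row) in the 21 samples, coloured by group, with open circles for the samples that stand apart. ACADVL, HADHB and ACAA2 rise with both marker means, old male 4 is the point at the upper right, and old female 6 is the lowest HADH value at 8.34.

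Old against young was then fitted given the white adipocyte level, with all 21 samples only. In males the brightest HADH probe set had a difference of 0.74 ± 0.26 (unadjusted p 0.010, adjusted p 0.845 in limma). The second had -0.08 ± 0.30, lower in the old where it had been 0.30 without the fat term, and the third 0.22 ± 0.51. For comparison, the median of the other 9 genes was -0.14, beside 0.42 without the fat term. ACADVL had -0.37 ± 0.49, HADHB -0.10 ± 0.32 and ACAA2 0.08 ± 0.49. In males 0 of 15 were called and 1 had an unadjusted p below 0.05, beside 0% and 5.79% of all tested probe sets. In females HADH had -0.25 ± 0.26, and the male minus female difference of HADH was 0.99 ± 0.37 (unadjusted p 0.014, adjusted p 0.776 in limma). Without old male 4 and without the fat term, the median male change over the 10 genes was 0.003, beside 0.44 with all samples. How far the values given the fat term rest on old male 4 or the other samples that stand apart was not tested.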

How the data were processed

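The 24 arrays were deposited as linear intensities, 1 per probe set. The authors' summary and scaling of them are not given in the sources used here. With 2% of probe sets removed at each end, the mean deposited intensity of an array was 500.1 to 500.2, a level common to all 24, while array medians ran from 144.2 to 264.1. RNA was labelled with biotin, per the labels' protocols.

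Probe sets were named by the platform annotation (19064 had 1 symbol, 1043 several and 2108 none here). The 62 control probe sets were left out. Intensities became log2(intensity + 16), which understates the change of dim genes, and were quantile normalised. Probe sets with a mean at or above the median of all means were tested, 11108 in all. Arrays of 1 group whose log2 differences had an SD below 0.4 and whose deviations correlated above 0.7 were averaged (3 pairs, among 276 compared: arrays 3 and 4 of the young males, 3 and 4 of the young females, and 1 and 4 of the old females). Averaged pairs are named by the lower number.

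A mean per group was fitted with limma 3.58.1 in R 4.3.3 with an intensity trend, all 21 samples sharing 1 estimate of the spread. The model was tested on simulated data. Slopes added the mean of the tested markers of a list as a covariate. Correlations used 100000 permutations.

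The members, gene lists and rules were chosen with earlier results of these data known. The text names all member probe sets, genes among the 4 of each pathway list with the smallest p-values in either sex, the 10 genes most like HADH, and markers among the 4 that follow their list mean best. Genes named outside this rule were ADIPOQ, LEP, GPD1, CIDEC, DIO2, PRDM16 and ZIC1, and those most like ACADVL, chosen after their values were seen. Alternatives covered the averaging of arrays, normalisation, pseudocount, filter, array weights, variance trend, covariates, fat measure and each sample left out. Those with brown adipocyte markers as a second covariate, brown slopes and gene lists on fewer samples, and the further HADH probe sets were added after seeing the data. Among same-numbered samples of different groups, 14 of 30 pairs had deviations correlated above 0.1 (median 0.064). Among differently numbered ones it was 50 of 135 pairs (median -0.006). This check cannot settle whether the numbers pair samples, and the main model used no pairing. The number of arrays limits the precision.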

Additional observations from a re-analysis of the deposited data

Results flagged for a closer look

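In 10 of 64 groups of 5 or 6 samples the highest or lowest sample lay far from the others of its group. It lay beyond the 95% critical value of Dixon's gap test, where chance gives about 1 in 20 for a single group. The 64 groups share the same samples and are not independent, so the count is a description. Young male 1 was high for ACADVL (12.08, next 10.35), HADHB (11.64, next 10.38), ACAA2 (11.41, next 9.77) and ACADM (10.49, next 9.49). Old male 4 was high for ACADVL (14.01, next 11.37), HADHB (13.08, next 11.01) and ETFDH (11.27, next 9.03), and low for HADH minus its partners (-0.99, next 0.43). Young female 3 and old female 6 were low for the third HADH probe set in brightness (6.62, next 7.87, and 4.98, next 7.54). The 4 samples are among the 6 that stand apart on the array as a whole. Young male 1 and old male 4 had white adipocyte levels of 11.4 and 11.7, the highest of their groups, and the part of fat content in their values was not tested.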

How the results depend on the processing

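Of the 34 alternatives tried for the brightest HADH probe set in males, 33 kept it uncalled with a higher mean in the old (0.88 to 1.15 over all), and array weights called it at 1.08, which made 1 member probe set called in males. The second HADH probe set gave 0.30 and the third 0.39. With the replicate block the HADH difference was 0.99 and the count 0, and the replicate block changed no call of the comparisons described. Leaving out each sample in turn gave HADH -0.48 to 0.0072 in females, and a HADH white slope of 0.17 to 0.23. The HADH white slope passed with deposited scaling (0.21), with smooth muscle markers as a second covariate (0.30), without old female 6 (0.23) and, on the brown level, without the samples that stand apart (0.33).

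The count of 6 members called for the white slope became 3 with arrays centred on the median, 0 without the samples that stand apart, 0 with the actin ratio, 0 with brown markers as a second covariate and 3 for the brown level without old male 4, and ran from 3 to 7 over samples left out. Of all tested probe sets 9.08% were called upward in the main fit. This was 0.504% without the samples that stand apart and 0.513% for the brown level without old male 4. On the white level it was 6.18% without old male 4. No such share was computed with median centring, with the actin ratio or with any other single sample left out. The counts under those settings therefore have no background beside them. The median slope of 0.29 was 0.28 without the samples that stand apart, and became 0.19 with median centring, 0.40 on the brown level and 0.062 with brown markers beside white.

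Small uncalled differences turned direction. With samples left out in turn the male change ran from -0.25 to 0.094 for CPT1A, -0.086 to 0.90 for ACADVL, -0.11 to 0.47 for ACADM, -0.12 to 0.30 for HADHA and -0.095 to 0.62 for ETFDH. The female change ran from -0.32 to 0.089 for CPT1A, -0.31 to 0.080 for CPT2, -0.48 to 0.19 for ACADVL, -0.067 to 0.23 for ACADM, -0.34 to 0.076 for ECHS1, -0.35 to 0.074 for HADHB and -0.17 to 0.35 for ETFDH, and the white slope from -0.018 to 0.25 for CPT2 and -0.0042 to 0.10 for ECHS1. CPT1A in males was 0.040 with 24 arrays and 0.014 with the actin ratio. Without the samples that stand apart ACADM was -0.049 in males, and in females CPT1A was 0.10, CPT2 0.28, ACADM -0.032, ECHS1 0.022 and HADHA 0.031. In females CPT2 was 0.025 with deposited scaling and 0.11 with array weights, ACADM -0.012 with median centring, -0.00053 with array weights and -0.091 with the actin ratio, and ETFDH -0.14 with the actin ratio. The white slope was -0.021 for ECHS1 with median centring, and with brown markers beside white -0.057 for CPT1A, -0.20 for CPT2, -0.035 for HADHA and -0.061 for ETFDH. The brown slope without old male 4 was -0.046 for ECHS1. The cause was not tested for any of these.

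The number of arrays and, for the third HADH and the second CPT1A probe set, signals near the dim end limit the precision.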
